A study of Caenorhabditis elegans with 2 samples.

Results

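The sites described here are the places on the arms of C. elegans chromosomes II, III, IV and V where the tagged bcl-11 product F13H6.1 was found enriched on DNA above the authors' reproducibility threshold. A site was placed on an arm when its summit, the base of strongest enrichment, lay in the first or last 25% of the chromosome length. This gave 240 arm sites, against 397 sites in the central 50% of the same chromosomes, here called the centres. They were 37.7% of the 637 sites on these 4 chromosomes and 22.5% of the 1065 sites of the whole genome.

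The method was ChIP-seq, in which DNA is immunoprecipitated together with a protein of interest, sequenced, and mapped to show where the protein sat. The worms were of strain OP471, with the genotype unc-119(tm4063) III and the transgene wgIs471, which expresses F13H6.1 fused at its C-terminal end to GFP-FLAG. Whole hermaphrodite late embryos were taken 5 hours after synchronization by egg bleaching, and an anti-GFP antibody served for the immunoprecipitation. There was 1 group with 2 biological replicates and no second condition, so every comparison below is between regions of the genome and not between treatments. Because whole embryos were used, binding in few cells and weak binding in many cells cannot be told apart. Both replicates came from 1 transgenic line, and its listed genotype names no change at the endogenous bcl-11 gene.

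Worm chromosomes have no single centromere, and their autosomes are organised into a gene-rich centre and a pair of arms. Arms recombine more, hold more repeats, carry more of the silencing mark H3K9 methylation and lie closer to the nuclear lamina, and they are home to large, fast-evolving gene families such as chemoreceptors and F-box genes. F13H6.1 is named after the mammalian BCL11 proteins, zinc finger transcription factors of blood and brain. Mammalian BCL11A binds the word TGACCA.

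Among the 12 arm sites of highest signal, 4 held TGACCA within 50 bp of the summit, and all 4 lay in introns of protein-coding genes. They are shown because they are the strongest arm sites with the known mammalian word. The cut at 12 is the rank of the aakg-1 site and was set after the values were seen, so this count shows no enrichment. Over all arm sites the word was at 10 of 240 (4.17%), against 3.28% of arm sub-threshold regions. That difference did not pass the test (Fisher's exact p = 0.459). Each line gives the plus strand of ce11 (WBcel235) 5′ to 3′, with 50 bp on each side of the summit, and capitals mark TGACCA or its reverse complement TGGTCA.
Y111B2A.12 intron, chrIII:12612610-12612710: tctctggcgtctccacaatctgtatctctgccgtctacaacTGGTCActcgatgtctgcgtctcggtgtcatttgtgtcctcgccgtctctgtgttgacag
lin-42 intron, chrII:1246999-1247099: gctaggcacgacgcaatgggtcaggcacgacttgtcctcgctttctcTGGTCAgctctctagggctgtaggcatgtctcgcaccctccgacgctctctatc
lit-1 intron, chrIII:13713068-13713168: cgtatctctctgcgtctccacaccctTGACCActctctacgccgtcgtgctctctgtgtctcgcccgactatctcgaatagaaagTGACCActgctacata
aakg-1 intron, chrIII:12558237-12558337: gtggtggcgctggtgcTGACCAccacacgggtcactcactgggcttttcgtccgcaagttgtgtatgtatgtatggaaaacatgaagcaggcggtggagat

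A second set shows arm sites between genes. These 3 were chosen among the 6 strongest intergenic arm sites because they hold at least 1 of the 6 words of smallest p among those more frequent at arm sites than at sub-threshold arm regions, which the other 3 do not. Capitals mark the words AGAGAC and CGAGAG, the word CGTCTC, the word GAGAGA, the word GAGCGC and the word GCGCGC on either strand, and overlapping matches run together.
tasp-1, chrIII:10759203-10759303: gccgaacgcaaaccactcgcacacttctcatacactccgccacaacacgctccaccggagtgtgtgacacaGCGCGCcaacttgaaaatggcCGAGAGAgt
W03C9.5, chrII:11967673-11967773: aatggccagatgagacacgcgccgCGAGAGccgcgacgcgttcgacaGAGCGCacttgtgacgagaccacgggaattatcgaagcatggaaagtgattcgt
atx-2, chrIII:10461296-10461396: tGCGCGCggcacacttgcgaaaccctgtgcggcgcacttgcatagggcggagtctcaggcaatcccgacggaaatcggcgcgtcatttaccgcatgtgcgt

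A further pair shows the arm sites of highest signal beside tRNA genes, where capitals mark the first bases of the gene itself, with the flank before it in lower case. Both genes are on the plus strand.
T21B4.t1, a tRNA-Ile gene, chrII:12494673-12494773: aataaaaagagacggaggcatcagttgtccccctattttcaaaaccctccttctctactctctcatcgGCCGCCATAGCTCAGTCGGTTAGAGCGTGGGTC
F29C4.t1, a tRNA-Arg gene, chrIV:143907-144007: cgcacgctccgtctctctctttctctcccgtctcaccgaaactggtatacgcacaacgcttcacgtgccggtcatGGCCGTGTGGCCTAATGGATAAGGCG

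Arms carried fewer sites than centres. The arms held 7.11 sites per Mb (95% Poisson interval 6.24 to 8.07) and the centres 11.8 per Mb (10.6 to 13.0), over 33.7 Mb each. The ratio was 0.605 (95% interval 0.513 to 0.711; two-sided exact binomial test, p = 5.24e-10). Neighbouring sites are not independent, and 1 site per 10 kb left 210 on arms and 347 in centres.

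The deficit was not one of candidate regions. The authors also deposited a permissive list of 21824 regions called on the pooled reads, and the arms of II to V held 7110 of its regions that overlapped no site, against 6182 in the centres. Of arm regions 3.27% were sites (240 of 7350; 95% Wilson interval 2.88% to 3.70%), and of central regions 6.03% (397 of 6579; 5.48% to 6.64%). Over both together the share was 4.57%. The odds ratio was 0.526 (95% interval 0.446 to 0.619; two-sided Fisher's exact test, p = 5.63e-15). All 1065 sites were also the 1065 pooled regions of highest signal, the strength that the authors' peak caller gave each region, so passing the threshold here is the same as standing above 1 signal level. The scale of that signal is not stated, and it ranks regions only within a list. Just below the sites, at ranks 1066 to 2000, 44.7% of the regions of II to V lay on arms. With only the 1065 strongest sub-threshold regions of the genome kept, the odds ratio was 0.746 (95% interval 0.596 to 0.932; Fisher's exact p = 0.0106).

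The size of the deficit differed between chromosomes (Breslow-Day chi-square test over 4 chromosomes with Tarone's adjustment, p = 0.000218). Chromosome V showed the largest, with 3.54 sites per Mb on its arms and 10.6 per Mb in its centre, and 2.02% against 6.79% of regions passing (odds ratio 0.284, 95% interval 0.194 to 0.414; Fisher's exact p = 2.79e-12). On chromosome III, with 10.2 and 16.8 sites per Mb, the odds ratio was 0.503 (0.371 to 0.682; Fisher's exact p = 7.43e-06). On chromosome II the densities were 7.99 and 12.2 per Mb, with an odds ratio of 0.580 (0.417 to 0.806; exact p = 0.00124). Chromosome IV had 8.23 per Mb on its arms and 8.80 per Mb in its centre, and its odds ratio of passing, 0.855 (0.615 to 1.19; exact p = 0.357), did not pass the test.

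**Figure D1:**
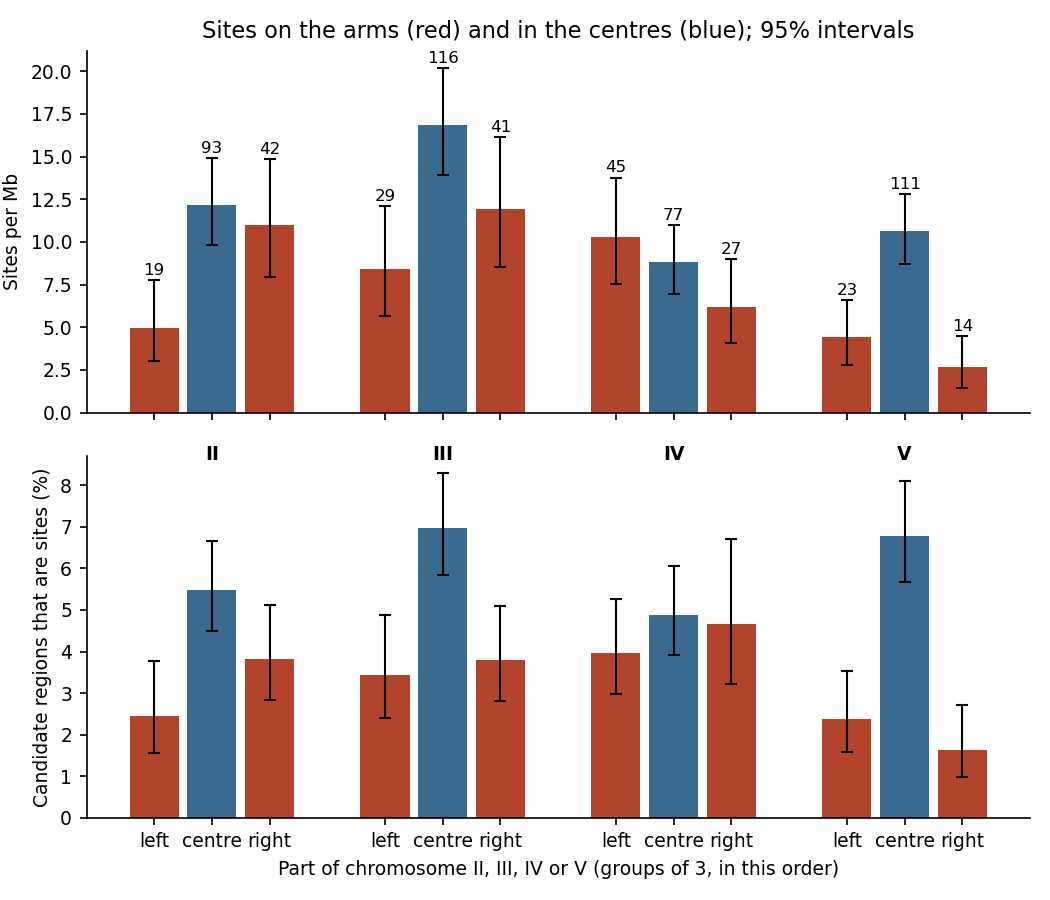
Upper panel: sites per Mb (bars, 95% Poisson intervals, number of sites above each bar) in the left arm, centre and right arm of chromosomes II to V. Lower panel: percentage of candidate regions that are sites (95% Wilson intervals); the left arm of IV holds 45 sites at 10.3 per Mb, and both arms of V lie at 4.40 per Mb or less.

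The 8 arms were not alike. The left arm of IV had the most sites, 45, and the right arm of V the fewest, 14, at 2.68 per Mb. The 2 arms of chromosome II held 19 sites on the left, at 4.97 per Mb, and 42 on the right, at 11 per Mb, with intervals of 2.99 to 7.77 and 7.92 to 14.9 that do not overlap. Left and right arms together held 116 and 124 sites. By share of regions passing, the arms ran from 1.64% on the right arm of V to 4.67% on the right arm of IV, and the centres from 4.88% on IV to 6.96% on III.

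Density did not change evenly from the end inwards. The outermost of 4 equal arm bins held 8.30 sites per Mb and the next bins 6.88, 4.98 and 8.30 per Mb up to the inner boundary at 25%. Across that boundary the following bin held 10.7 per Mb and the next 14.1 per Mb. The lowest share of regions passing, 2.49%, was in the bin from 12.5% to 18.75%, and the highest, 7.54%, in the bin from 31.25% to 37.5%.

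**Figure D2:**
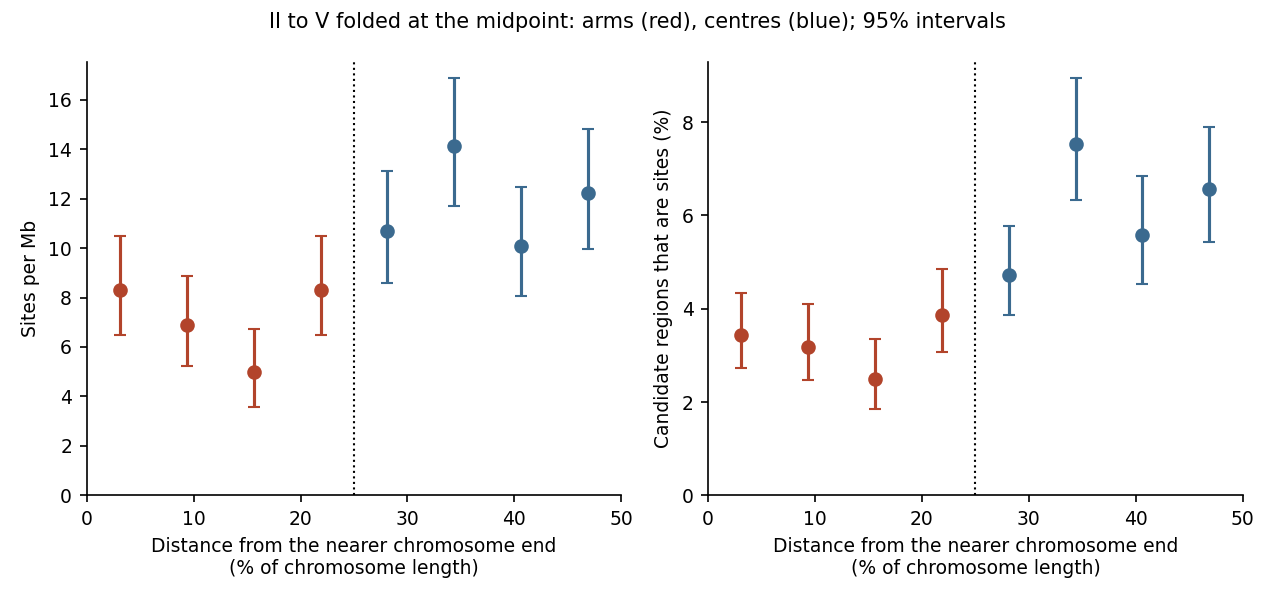
Sites per Mb (left) and percentage of candidate regions that are sites (right) against distance from the nearer chromosome end, in 8 bins over II to V together, with 95% intervals. The 4 arm bins lie between 4.98 and 8.30 sites per Mb and the 4 central bins between 10.1 and 14.1.

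The sites nearest to the inner boundaries lay from 6.32 to 349 kb away. On chromosome II the nearest arm site inside the right boundary, at the snoRNA gene B0334.12, lay 25.3 kb from it with a signal of 242, and the nearest central site, by the splicing factor gene rsp-1, lay 6.32 kb away with a signal of 103. At the left boundary of IV the nearest arm site, at C35B1.2, was 280 kb away with a signal of 90.9. The nearest central site there, by the ribosomal protein gene rpl-7A, was 17.2 kb away with a signal of 88.0. The 2 nearest sites at the left boundary of V, by mlk-1, a MAP kinase kinase kinase gene, on the arm side and penr-1 on the central side, had signals of 103 and 84.3.

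Each summit was placed in 1 annotation class. Summits within 100 bp of a tRNA, snoRNA or snRNA gene came first, then those in coding exons, in UTRs, in introns and in other noncoding genes, and the rest were intergenic. Most arm sites lay between genes. Intergenic sites were 130 of 240 on arms (54.2%) and 220 of 397 in centres (55.4%). Introns held 55 arm sites (22.9%) and 68 central sites (17.1%), with an odds ratio of 1.44 (95% interval 0.966 to 2.14). Sites at tRNA, snoRNA or snRNA genes numbered 30 (12.5%) and 55 (13.9%), those in other noncoding genes 14 (5.83%) and 36 (9.07%), in coding exons 7 (2.92%) and 6 (1.51%) and in UTRs 4 (1.67%) and 12 (3.02%). No class differed between arms and centres in two-sided Fisher's exact tests, with Benjamini-Hochberg adjusted p from 0.472 for introns to 0.805. The intervals for coding exons, 0.650 to 5.90, and UTRs, 0.173 to 1.71, are wide, so sizeable differences were not detectable with so few sites.

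The genome around the sites does differ. Introns make up 36.3% of arm bases and 28.4% of central bases, and coding exons 21.2% and 29.8%. Against sub-threshold regions of the same zone, arm sites were more often at tRNA, snoRNA or snRNA genes, 12.5% against 1.01% (odds ratio 14, 95% interval 8.93 to 21.9), and between genes, 54.2% against 30.9% (2.65, 2.04 to 3.43). They were less often in coding exons, 2.92% against 25.5% (0.0880, 0.0414 to 0.187), and in introns, 22.9% against 34.6% (0.561, 0.414 to 0.761). In the centres the same odds ratios were 11.8, 2.19, 0.0529 and 0.528. None of the 6 ratios of arm to central odds ratio passed the test, which was a Wald test of the interaction in a logistic model with adjusted p from 0.852 to 0.862. For intergenic sites the ratio was 1.21 (0.869 to 1.68) and for introns 1.06 (0.709 to 1.59).

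In 3 of the 6 classes taken alone, arm regions passed less often. Between genes 5.59% of arm regions and 8.95% of central regions were sites (odds ratio 0.603, 95% interval 0.481 to 0.754; Fisher's exact test, adjusted p = 4.95e-05). In introns the shares were 2.18% and 3.76% (0.571, 0.398 to 0.820; Fisher's exact test, adjusted p = 0.00856), and in other noncoding genes 5.67% and 12.2% (0.431, 0.227 to 0.819; Fisher's exact test, adjusted p = 0.0215). At tRNA, snoRNA or snRNA genes 29.4% of arm regions and 39.9% of central regions passed, with an odds ratio of 0.629 (0.364 to 1.09; Fisher's exact test, adjusted p = 0.154) that did not pass the test. Coding exons gave 0.385% and 0.430%, and UTRs 1.17% and 2.47%, neither called.

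**Figure D3:**
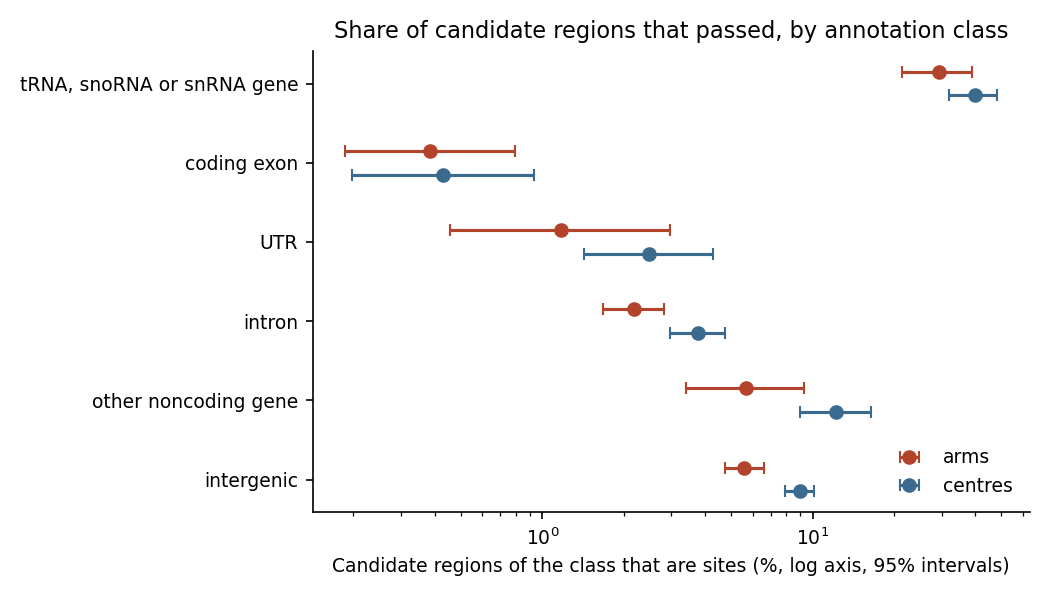
Percentage of candidate regions that are sites (log axis, 95% Wilson intervals) by annotation class, arms in red and centres in blue. The arm value is lower in each of the 6 classes, from 0.385% in coding exons to 29.4% at tRNA, snoRNA or snRNA genes; 3 of the 6 differences passed the adjusted test.

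By gene type, the only difference between arm and central sites that passed the test concerned noncoding RNA genes. A site was given a type when its summit lay from 1000 bp upstream to 500 bp downstream of a transcript start of such a gene, here called the promoter window. Windows of other noncoding RNA genes, a group without tRNA, snoRNA, snRNA and piRNA genes, held 50 of 240 arm sites (20.8%) and 134 of 397 central sites (33.8%; odds ratio 0.516, 95% interval 0.355 to 0.751; Fisher's exact test, adjusted p = 0.00351). The call was lost without chromosome III (odds ratio 0.567; Fisher's exact adjusted p = 0.0558), without V (0.662; 0.355) and with arms of the outer 33% (0.649; 0.103). Sub-threshold regions had the same direction, 9.56% on arms and 18.2% in centres, and the ratio of arm to central odds ratio was 1.09 (0.737 to 1.60; Wald chi-square test of the interaction, adjusted p = 0.757). Centres also have more such genes, 95.8 per Mb against 46.9. By chromosome, the shares were 31.1% on the arms of II and 29.0% in its centre, and 13.5% on the arms of V and 43.2% in its centre.

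Windows of protein-coding genes held 143 arm sites (59.6%) and 247 central sites (62.2%; odds ratio 0.895, 0.645 to 1.24; Fisher's exact test, adjusted p = 0.836). Windows of snoRNA or snRNA genes held 17 (7.08%) and 41 (10.3%), of tRNA genes 19 (7.92%) and 26 (6.55%), of piRNA genes 8 and 12, and of pseudogenes 3 and 5. None of these 5 types passed the test. In all, 180 arm sites (75%) and 336 central sites (84.6%) lay in some promoter window (odds ratio 0.545, 95% interval 0.365 to 0.812; Fisher's exact p = 0.00343), beside 46.4% and 58.0% of sub-threshold regions. The 60 arm sites outside every window comprised 31 intergenic, 22 intronic and 7 other sites. They had a median signal of 110 and lay a median of 2576 bp from a protein-coding start. The farthest was 7059 bp from a start of any gene.

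Counted by gene, protein-coding genes on arms were bound less often. On arms 189 of 6436 protein-coding genes (2.94%) had a summit in the window and in centres 330 of 7928 (4.16%), beside 3.61% on these chromosomes together (odds ratio 0.697, 95% interval 0.581 to 0.836; Fisher's exact test, adjusted p = 0.000267). Genes that share a window share a site, so their counts are not independent. Leaving out chemoreceptor, F-box and BATH, C-type lectin and nuclear receptor genes, whose removal was chosen after the values were seen, gave 183 of 5086 (3.6%) and 322 of 7255 (4.44%), with an odds ratio of 0.804 (0.668 to 0.967; Fisher's exact p = 0.0210).

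For piRNA genes, which number 11732 on arms and 3371 in centres and make the small RNAs of the germline Piwi pathway, 21 (0.179%) and 28 (0.831%) had a summit in the window (odds ratio 0.214, 0.121 to 0.378; Fisher's exact test, adjusted p = 8.04e-07). Most of them lie in dense clusters, and a single site can reach many. The 21 and 28 genes were reached by only 8 arm and 12 central sites, of which 7 and 10 were on chromosome IV. These genes are therefore not independent, and the test by gene cannot show that piRNA genes on arms are bound less often. Counted by site, the odds ratio was 1.11 (Fisher's exact test, adjusted p = 0.982). Of tRNA genes 23 of 137 on arms and 29 of 133 in centres were reached, beside 19.3% in all, and of snoRNA or snRNA genes 17 of 138 and 44 of 211, beside 17.5%. Other noncoding RNA genes gave 74 of 1583 (4.67%) and 198 of 3233 (6.12%), beside 5.65%. After adjustment none of these 3 types passed the test (Fisher's exact, adjusted p from 0.069 to 0.355).

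The strongest arm site of all lay at W03C9.9, a snoRNA gene, one of the class that guides chemical modification of other RNAs, on the right arm of II (chrII:11960652-11960998). Its signal was 476 in the pooled list, rank 6 of all regions, 243 in replicate 1 and 225 in replicate 2, at ranks 6 and 10. On the right arm of V the site at the snoRNA gene T06C12.16 (chrV:15873836-15874118) had 368 pooled, 205 and 159, and that at Y43F8C.22 271 pooled, 135 and 136. All 11 arm sites at snoRNA genes were within the 1065 strongest regions of both replicates, and so were 25 of the 26 central ones. The median signal of these arm sites was 162 (range 91.3 to 476), and the 26 central sites at snoRNA genes had a median of 176. The snRNA gene R07E5.16 on the right arm of III had a site of signal 235.5, which ranked 164 in replicate 1 and 46 in replicate 2.

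Sites at tRNA genes, which RNA polymerase III transcribes, had lower signals. The 17 arm sites there had a median signal of 96.8 (range 82.8 to 181), and 8 of them were within the 1065 strongest regions of both replicates. The 25 central sites had a median of 136, and 20 were within both. The strongest arm site was that of T21B4.t1, shown above, at 181, with rank 151 in replicate 1 and 195 in replicate 2. F29C4.t1 and M57.t1, both tRNA-Arg genes on the left arm of IV, followed with signals of 149 and 113. The 17 sites reached 19 tRNA genes for 13 amino acids, and the most frequent was tRNA-Glu with 3 genes.

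The highest-ranking arm sites near protein-coding genes were as follows. At eel-1, which encodes a large HECT-type ubiquitin ligase, 2 neighbouring sites on the left arm of IV (chrIV:3050432-3050887 and chrIV:3050747-3051062) had signals of 408 and 305. In each replicate both overlap the same region, at ranks 9 and 21, so they are 1 region there. The windows of 50 bp on each side of their summits were 100% and 68.3% soft-masked, the reference's mark for repeats and low-complexity sequence. The site 54 bp from a start of tasp-1, a threonine aspartase gene, on the right arm of III had a signal of 396, at ranks 22 and 14 in replicates 1 and 2.

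A site on the left arm of IV lay between ears-2, a mitochondrial glutamyl-tRNA synthetase gene, and uncp-18, 33 and 59 bp from their starts. It had a signal of 395 and ranks of 15 and 20. At atx-2, the ataxin-2 gene of RNA regulation, the signal was 364 with ranks of 18 and 29. The site at W03C9.5 on the right arm of II, with a signal of 364 and ranks of 20 and 26, also lay within 1000 bp of starts of rab-7, a small GTPase of late endosomes, and mex-1, an RNA-binding zinc finger protein of the early embryo. These 5 loci ranked within the first 30 regions of both replicates.

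On the other arms the leading sites were these. On the left arm of III the strongest were both in introns of pqn-41, a gene for a glutamine-rich protein, at 258 and 226. The right arm of IV was led by a site of 299 in a group of short noncoding RNA genes beside cel-mir-52, a microRNA gene of the mir-51 family, which appears in the list with 1 interval and 2 summits, and by a site of 222 between snx-13 and snr-1, a core snRNP protein gene. On the left arm of V the site in linc-128 had 223 and that at Y50D4C.5 193. On the left arm of II the site near vig-1, at 157, followed that in lin-42.

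The strongest coding-exon site on arms was in lin-42, at 120, and the next in F41F3.3, at 112. The strongest UTR sites were those of srh-2, a chemoreceptor gene, at 111, and mrt-2, a DNA damage checkpoint gene, at 109. No coding-exon or UTR site on arms reached the 266 strongest sites of the genome, whereas 40 intergenic, 12 intronic, 10 tRNA, snoRNA or snRNA and 5 other noncoding sites did.

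Large arm gene families were rarely bound. Among arm genes a window held a summit for 2 of 771 chemoreceptor genes, srh-2 and srh-269, 1 of 312 F-box and BATH genes, fbxb-85, 1 of 134 C-type lectin genes, clec-126, 2 of 133 nuclear receptor genes, nhr-237 and nhr-41, and 1 of 82 detoxification genes, gst-27. These shares, from 0.259% to 1.50%, are set beside 2.94% of all protein-coding genes on arms. In 4 of the 7, srh-269, clec-126, nhr-41 and gst-27, the summit lay within 100 bp of a tRNA or snoRNA gene. None of 34 neuropeptide and insulin genes and none of 14 homeobox genes on arms was bound. Beside a share of 2.94%, lists this small cannot show that their genes are bound less often. In centres the large families, in the same order, gave 2 of 471, 3 of 45, 0 of 67, 3 of 90 and 0 of 81. Neuropeptide and insulin genes gave 0 of 53 and homeobox genes 0 of 29 there. Of all central protein-coding genes 4.16% were bound, and the F-box and BATH share, 6.67%, was above that. These counts were not tested.

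In the lists of protein synthesis and folding the shares were above that of all protein-coding genes on arms. Of 14 cytosolic ribosomal protein genes on arms 5 were bound, rps-24 with a signal of 281, rpl-15 with 219, rps-28 with 174, rpl-43 with 133 and rpl-12 with 94.4. In centres 9 of 40 were bound. Of 12 chaperone genes on arms 4 were bound, namely hsp-60, the mitochondrial chaperonin gene, with a signal of 162, hsp-1, a cytosolic Hsp70 gene, with 121, cct-7, a subunit of the cytosolic chaperonin, with 110, and hsp-6, the mitochondrial Hsp70 gene, with 83.8. The centres had 4 of 33. Of collagen genes 2 of 37 were bound, col-85 and col-71, and col-85 shares its site with T21B4.t1. Mitochondrial ribosomal protein genes gave 1 of 19, mrps-35. These counts are small and were not tested.

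Of 3 heterochronic genes on arms, which time larval development, 2 were bound, lin-42 and lin-66, with signals of 120 and 159 for the site in the promoter window. Of 4 Wnt signalling genes on arms, 1 was bound, lit-1, the gene of a Nemo-like kinase of the Wnt pathway. In centres the counts were 0 of 1 and 1 of 9, and on arms 2.94% of all protein-coding genes were bound. These lists are small and their counts were not tested. Its intronic site (chrIII:13712955-13713320) had a signal of 391 and ranks of 31 and 9.

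The lin-42 gene, the worm's relative of the period clock genes, held the largest group of neighbouring sites on the arms, 5 within 10.2 kb. The strongest, 3014 bp from the nearest lin-42 start and 81 bp from a start of the noncoding RNA gene F47F6.13 inside lin-42, had a signal of 432 in the pooled list and of 216 in each replicate, at ranks 10 and 12. The others had signals of 123, 120, 94.3 and 85.9. Their ranks were 443, 698, 1048 and 810 in replicate 1 and 471, 371, 797 and 1641 in replicate 2. Besides the 5 sites, lin-42 held another 7 candidate regions under the threshold. That of rank 1542 has the same interval as the strongest site, and that of rank 8610 overlaps the site of signal 123. Regions that overlap a site were not counted among the sub-threshold regions. The next largest group was pqn-41 on the left arm of III, with 4 sites in 5.55 kb and signals from 107 to 258.

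With sites within 10 kb of each other joined, the 240 arm sites fell into 195 loci, of which 160 were single sites, 28 pairs and 7 larger groups with 24 sites. A neighbour within 10 kb was found for 80 arm sites (33.3%) and 118 central sites (29.7%; odds ratio 1.18, 95% interval 0.838 to 1.67; Fisher's exact p = 0.377). Of arm sites 52 (21.7%) and of central sites 94 (23.7%) lay in windows of 2 or more protein-coding genes (odds ratio 0.892, 0.607 to 1.31; Fisher's exact p = 0.627).

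By signal rank, the share of regions on arms was lowest among the weaker sites and above 50% in the lowest ranks. It was also above 50% in the first 100, but with an interval that includes 50%. Among the 55 regions of II to V that were in the first 100 of the pooled list, 31 were on arms (56.4%, 95% Wilson interval 43.3% to 68.6%). The shares were 37.9% and 39.4% for ranks 101 to 266 and 267 to 532, and 33.7% (28.9% to 39.0%) for ranks 533 to 1065. Below the threshold they were 44.7% at ranks 1066 to 2000, 47.3% at 2001 to 4000, and 55.1% and 54.0% further down. Arms and centres have equal length, so 50% is the share by bases.

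**Figure D4:**
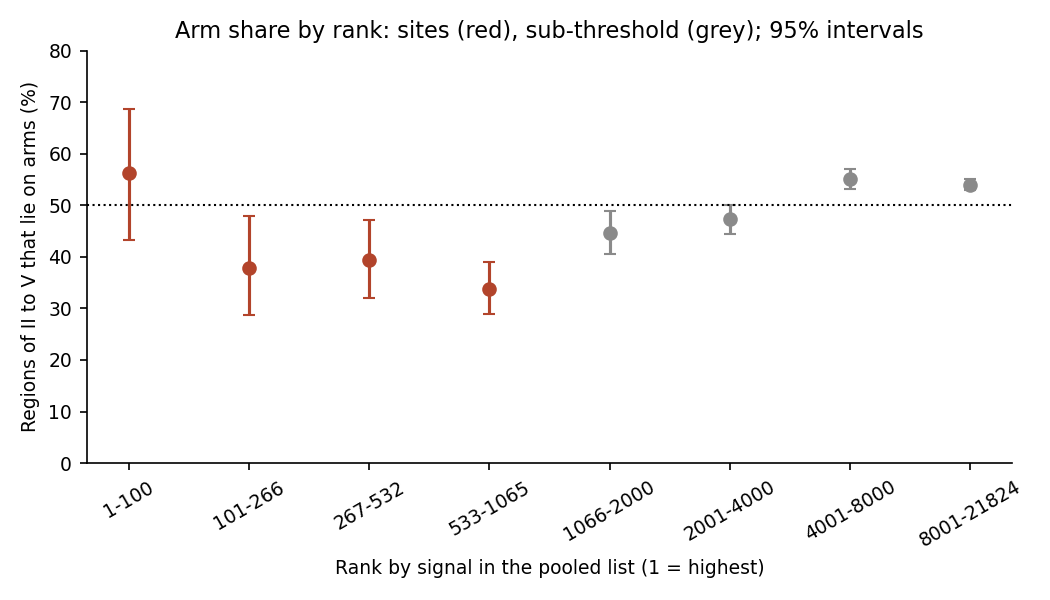
Percentage of regions of II to V that lie on arms against rank by signal in the pooled list, with 95% Wilson intervals; red points are sites, grey points sub-threshold regions, and the dotted line is 50%. The share is 56.4% in the first 100 ranks, 33.7% in the last rank bin of the sites and 54.0% in the lowest bin.

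The median signal was 117 on arms (range 82.5 to 476) and 107 in centres (range 82.2 to 1223). No arm site reached the signal of the strongest central site, at K12H4.5. Of arm sites 67 (27.9%) were among the 266 strongest sites of the genome, and of central sites 83 (20.9%), beside 23.5% of both together. The odds ratio of 1.47 (95% interval 1.01 to 2.12) did not pass Fisher's exact test (p = 0.0537). With the 100 strongest sites in place of the 266, 31 arm sites and 24 central sites gave an odds ratio of 2.30 (Fisher's exact p = 0.00349). Several of the 31, such as B0334.12 at 75.2% of the chromosome length and tasp-1 at 78.1%, would be central with outer 20% arms. Others, such as lit-1 at 99.5%, would not. This count was not repeated with other arm widths. For the 266 strongest, outer 20% arms gave an odds ratio of 1.32 (Fisher's exact p = 0.178). The 31 also include the neighbouring pairs at eel-1 and Y62F5A.12, and each pair overlaps the same region in each replicate. By arm, the median signal ran from 95 on the left arm of II to 135 on its right arm.

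Every arm site overlapped a called region in each replicate. Of arm sites 178 (74.2%) overlapped the 1065 strongest regions of both replicates, and of central sites 261 (65.7%), beside 68.9% together (odds ratio 1.50, 95% interval 1.05 to 2.13; Fisher's exact p = 0.0274). This call was lost in 6 alternatives, for example at 1.28 (Fisher's exact p = 0.217) with 1 site per 10 kb. Of the other arm sites, 31 were missing from that set in replicate 1 and 36 in replicate 2, and 5 of them in both. The right arm of V had 12 of 14 sites in both sets and the left arm of II 9 of 19.

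**Figure D5:**
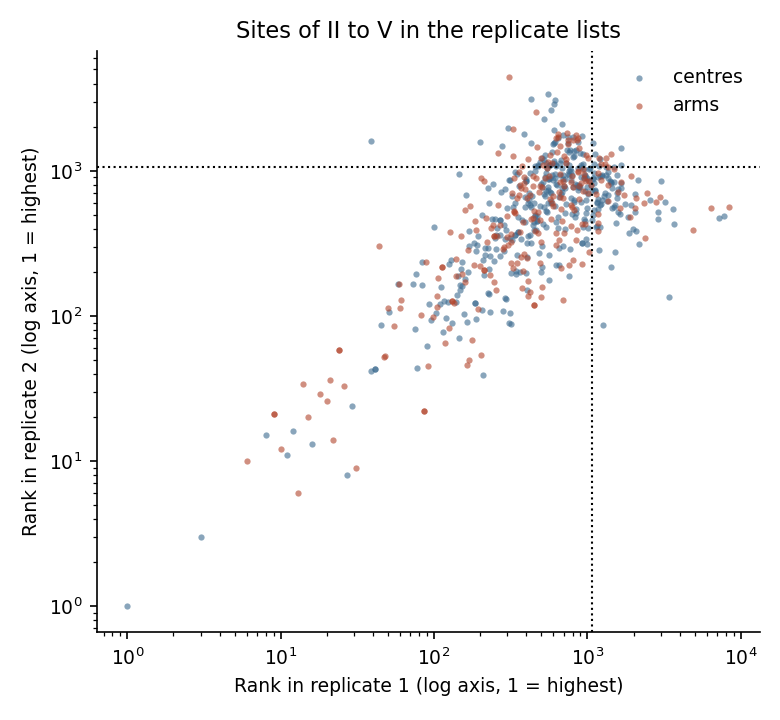
Rank of each site of II to V in replicate 2 against its rank in replicate 1, both on log axes where 1 is the highest signal; arms in red, centres in blue, dotted lines at rank 1065. The 178 arm sites in the lower left field are within the 1065 strongest regions of both replicates.

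No difference in TGACCA was detectable between arm sites and other regions. It was within 50 bp of the summit at 10 of 240 arm sites (4.17%), 13 of 397 central sites (3.27%; odds ratio 1.28, 95% interval 0.554 to 2.98; Fisher's exact p = 0.662) and 233 of 7110 arm sub-threshold regions (3.28%; odds ratio 1.28, 0.672 to 2.45; p = 0.459). The place of these sites in the ranking was noticed after the values were seen, so the counts that follow are a description only. The word was at 6 of the 67 arm sites among the 266 strongest and at 4 of the other 173. In centres the same counts were 2 of 83 and 11 of 314. None of the 12 strongest central sites held it, but the central site of rank 13 did, with a signal of 241. That site lies 4734 bp from a start of bcl-11, the tagged gene. The cut at 12 was set by the arm sites, so it cannot serve as a contrast between arms and centres.

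The 4 strongest, shown above, were in Y111B2A.12 with a signal of 470, lin-42 with 432, lit-1 with 391 and aakg-1, a gene of an AMP-activated kinase subunit, with 326. The middle of the word was 0.5 bp from the summit in lin-42 and 6.5 bp in Y111B2A.12. It was 21.5 bp away in lit-1, which has 2 copies, and 31.5 bp in aakg-1. The next was an intergenic site 3032 bp from a start of znf-782, with 2 copies and a signal of 226. Another intergenic site, 2014 bp from a start of hif-1, the gene of the hypoxia-inducible factor, had a signal of 164. There the word was again 0.5 bp from the summit. Both sites lie outside the promoter windows of these genes.

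At the 2 arm sites of lowest signal among the 10 with TGACCA the word lies in tRNA-Gly genes. These sequences are shown because the word stands in the same stretch of gene in both, with capitals as before.
Y82E9BR.t1, chrIII:1424451-1424551: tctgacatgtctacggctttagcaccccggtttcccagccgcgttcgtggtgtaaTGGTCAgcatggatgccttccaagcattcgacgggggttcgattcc
Y43D4A.t2, chrIV:16776024-16776124: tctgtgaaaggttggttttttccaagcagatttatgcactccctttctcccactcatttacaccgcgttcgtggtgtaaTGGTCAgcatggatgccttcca
Their signals were 96.2 and 83.6, and both sites are counted above among those at tRNA genes.

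Over all 2080 words of 6 letters, with reverse complements merged, 0 differed between arm and central sites after adjustment (0% of words called; 106 at an unadjusted Fisher's exact p under 0.05). The smallest adjusted p was 0.0965, for GAAGAA, found at 5.42% of arm sites and 16.1% of central sites. Against arm sub-threshold regions 305 words were called (14.7%), 206 higher and 99 lower at arm sites. AGAGAC was at 24.2% of arm sites and 5.40% of arm sub-threshold regions (odds ratio 5.58, 95% interval 4.08 to 7.63; Fisher's exact test, adjusted p = 1.19e-17), and at 18.9% of central sites. CGAGAG had 22.1% and 4.60%, CGTCTC 23.8% and 6.13%, and GCGCGC 13.3% and 2.17%. AAAATT, which was less frequent at arm sites, was at 12.9% and 34.8%. At least 1 of the 6 leading words was at 150 arm sites (62.5%), 231 central sites (58.2%) and 1414 arm sub-threshold regions (19.9%). The 6 words were picked by this same comparison of arm sites with sub-threshold regions. The gap between those 2 shares follows from the choice and is no separate result. It is not adjusted for GC content.

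Base composition moved with these words. The median GC content of the windows was 52.5% at arm sites and 43.6% at arm sub-threshold regions, and 49.5% and 41.6% in centres. Within 5 strata of GC content 108 words were called (5.19%), 94 higher and 14 lower, and 95 of them were also called in the same direction without strata. AGAGAC had a Mantel-Haenszel odds ratio of 4.60 (chi-square test, adjusted p = 6.03e-20). Words overlap one another, so these counts are not of independent sequences.

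Repeats were less common at arm sites than at weaker arm regions. At least 50% of the window was soft-masked, the reference's mark for repeats and low-complexity sequence, at 34 arm sites (14.2%) and 41 central sites (10.3%), and at 27.7% and 13.3% of sub-threshold regions. The odds ratio of site against sub-threshold region was 0.430 on arms (95% interval 0.298 to 0.621; Fisher's exact p = 1.34e-06) and 0.749 in centres (0.538 to 1.04; p = 0.0918). Their ratio was 0.575 (0.351 to 0.942; Wald chi-square test of the interaction, p = 0.0280). Soft-masked bases make up 43.3% of arms and 29.4% of centres. Among regions less than 50% masked, 3.85% of arm and 6.23% of central regions were sites (odds ratio 0.603, 0.506 to 0.719; Fisher's exact p = 1.21e-08). Among regions at least 50% masked the shares were 1.70% and 4.74% (odds ratio 0.347, 0.2185 to 0.550; Fisher's exact p = 9.03e-06). Reads that map to several repeat copies can be lost or spread by an aligner, and how they were treated is not given in the sources used here.

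The gene with the strain's mutant allele and the gene of the tagged product were looked at separately. The place where the transgene is inserted was not examined. The unc-119 gene, on the right arm of III, carries the strain's mutant allele and is widely used as a marker for worm transformation. It held no site. In it or just upstream of it were 4 candidate regions with signals from 25.4 to 42, at ranks from 4900 to 16754. The bcl-11 gene, whose product was tagged, lies in the centre of V. In it or just upstream of it were 5 sites with signals from 91.3 to 124. A further site, of signal 241, lay 4734 bp from a bcl-11 start. Reads from the tagged copy in the transgene can map to this locus. Binding here and an added gene copy therefore cannot be told apart. All of these sites are counted among the central sites of V.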

How the data were processed

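ChIP-seq regions of F13H6.1 from 2 biological replicates of 1 group were analysed as deposited. Per the file records and the labels, the authors listed permissive regions for replicate 1 (19517), replicate 2 (21972) and both pooled (21824), each called against a control, and from the pooled list retained those meeting an irreproducible discovery rate cut-off. The signal of each region is the authors' own value, deposited without a stated scale, and was used only for ranks within a list. Not given in the sources used here are the aligner, the caller and the cut-off. Depth is unknown from the lists, and control libraries and signal tracks were not analysed here. The authors called sites on pooled reads, so a site has 1 value and no SD. P-values compare regions of this experiment and not conditions, and intervals cover counting error only.

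Lists on ce11 (WBcel235) gave all values. Positions are 1-based. Genes came from Ensembl release 115 of WBcel235, and sequence, soft-masking and the names of all 270 tRNA genes on II to V from RefSeq's assembly of the same build, the tRNA genes matched by both ends. Regions that overlap a site without being one, 340 in the whole list, were left out of the sub-threshold regions. Shares were compared by two-sided Fisher's exact tests (threshold 0.05), and Benjamini-Hochberg adjustment was made per family of classes, types or words. Their 95% intervals are Woolf's, with 0.5 added to all cells if any was 0. Alternatives were other arm widths, 1 site per 10 kb, leaving out a chromosome or replicate, the strongest sites alone, ce10, strata by chromosome, and other distances and windows.

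Named sites were the 10 strongest on arms and the 2 strongest in each arm and class. The 3 strongest at tRNA and at snoRNA or snRNA genes and up to 4 of each gene list were added. So were those nearest the boundaries, and those in or just upstream of lin-42, bcl-11 and unc-119. A few others are named as members of small counts or of the TGACCA set, which was chosen after values were seen. The members, gene lists and tests were chosen with earlier results of these data known. Python 3.11.15, numpy 2.4.6, pandas 2.3.3, scipy 1.17.1, statsmodels 0.14.6 and matplotlib 3.10.9 were used, and the tests were tested on simulated data.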

Additional observations from a re-analysis of the deposited data

How the results depend on the processing

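Of 280 repeats of 23 results, 219 kept their direction and their side of the threshold. All 12 alternatives for site density (ratio 0.525 to 0.723) and all 17 for the share of regions passing (odds ratio 0.449 to 0.746) did so, including those without chromosome IV or V, and 3 for the share passing chosen after seeing the data, promoter windows alone (0.582), regions under 50% soft-masked (0.603) and strata of annotation class. For the results below the cause of a change was not tested.

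The lower share of arm sites at other noncoding RNA genes was no longer called with outer 33% arms (0.649), without chromosome III (0.567) or V (0.662), and relative to sub-threshold regions, chosen after seeing the data, it was 1.09, with protein-coding at 1.27 and snoRNA or snRNA genes at 1.45. The higher share in both replicates' strongest regions missed the threshold with outer 20% (1.34) or 33% arms (1.38), 1 site per 10 kb (1.28), without II (1.48) or III (1.37), and in the strongest 532 sites (4.46). The share among the 266 strongest sites passed it without V (1.60), by chromosome strata (1.54), away from tRNA, snoRNA and snRNA genes (1.82), for the highest 100 (2.30) and without replicate 1. Over the replicates left out in turn it ran from 1.26 to 1.54, and without replicate 2 it did not pass. In the strongest 532 sites, tRNA, snoRNA and snRNA sites were fewer on arms (0.391, called), and with outer 20% arms so were snoRNA or snRNA windows (0.379, called).

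Values that were not called and changed direction were as follows. For the ratios of arm to central class odds ratio, tRNA, snoRNA or snRNA genes gave 0.882 (outer 20%), 0.901 (outer 33%) and 0.983 (without V), UTRs 1.32, 1.45, 1.16 (without II) and 1.30 (without IV), introns 0.966 (outer 33%), 0.951 (without II) and 0.893 (without III), and other noncoding genes 1.33 (outer 33%) and 1.04 (without IV). Intergenic share gave 1.03 without II, 1.19 without III and 1.63 in the strongest 532. For piRNA windows the values were 0.763 (outer 33%), 0.963 (1 per 10 kb), 0.952 (without IV), 0.937 (without V), 0.826 (strongest 532) and 0.727 (strata), for pseudogenes 1.71 (without II), 1.27 (without IV), 4.22 (strongest 532) and 1.22 (without RNA gene sites), for tRNA windows 0.817 (without IV) and 0.226 (strongest 532), for snoRNA or snRNA windows 1.02 (without IV), and for TGACCA 0.786 (100 bp windows).

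With each replicate's list used alone in turn, intergenic share ran from 0.899 to 1.24, coding exons from 1.04 to 4.44 (called with replicate 1 alone), tRNA windows 0.922 to 1.03, piRNA 0.919 to 1.22 and pseudogenes 1.32 to 2.15. The ratios of class odds ratios ran from 0.841 to 0.948 for tRNA, snoRNA or snRNA genes, 0.955 to 3.96 for coding exons, 1.08 to 1.14 for UTRs, 0.484 to 1.18 for other noncoding genes, and 1.08 to 1.60 for intergenic regions, the last called with replicate 2 alone. No paired analysis was possible because the series has 1 group. Depth is unknown, so what it limits could not be judged, and the ce10 lists used the ce11 chromosome lengths.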
